A study of Mus musculus with 6 samples.

Results

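The genes described here are 10 genes of a list for the major histocompatibility complex (MHC) class II pathway, read from 14484 measured genes in mouse skin. They were chosen by symbol, and all 10 had a row in the count table. They comprise the chains of the classical class II molecules (H2-Aa, H2-Ab1, H2-Eb1 and H2-Ea-ps) and the peptide-loading factors (H2-DMa, H2-DMb1 and H2-DMb2). The others are the invariant chain Cd74, the transactivator Ciita, and Cd207, the Langerhans cell lectin langerin. Cd207 marks a cell type and is not a class II gene, but the counts of 10 class II genes below include it. The study compared 3 ATR mD/mD libraries with 3 ATR WT libraries by RNA sequencing of skin. The ATR mD/mD samples carried ATR fl/fl with Braf CA/+ and Cre, and the labels describe the resulting Atr gene as lacking part of its kinase domain. The ATR WT samples carried ATR +/+ with the same Braf CA/+ and Cre. All 6 shared a C57BL/6-129J background. The design text speaks of nevi, benign lesions of melanocytes. The labels give neither the promoter that drives Cre, nor age or sex, nor whether animals were pooled. Nor do they state that each library is a different mouse, so a p-value here reflects the spread among these 6 samples, which may be technical in part.

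MHC class II molecules are pairs of an alpha and a beta chain that show peptides from engulfed proteins to CD4 T cells. The invariant chain encoded by Cd74 escorts new class II molecules to endosomes, where H2-DM exchanges the last piece of that chain for a peptide. Transcription depends on Ciita, a co-activator that docks on the RFX, CREB and NF-Y factors bound to the X and Y boxes of class II promoters. In skin, Langerhans cells of the epidermis and dendritic cells and macrophages of the dermis carry most class II molecules, and interferon gamma can induce them in other cells.

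The genes of the classical chains and of H2-DM lie together on chromosome 17 (mm10; GENCODE M21). H2-DMa spans chr17:34119541-34139101, H2-DMb2 chr17:34143307-34151555 and H2-DMb1 chr17:34153072-34160230, all on the plus strand. H2-Ab1 spans chr17:34257689-34269419 on the plus strand and H2-Aa chr17:34282744-34287823 on the minus strand. H2-Eb1 spans chr17:34305867-34316674 on the plus strand, and H2-Ea-ps chr17:34341959-34344645 on the minus strand. Ciita lies at chr16:10480059-10528418 on the plus strand and Cd207 at chr6:83671215-83677857 on the minus strand. GENCODE lists H2-Ea-ps as a polymorphic pseudogene. As background, C57BL/6 mice do not transcribe their E alpha gene because of a deletion at its start. Many other strains make the E alpha chain. Only the library ATR WT 3, with 0 counts of H2-Ea-ps, matched that C57BL/6 state, and the other libraries had 86 to 351 counts. Whether the other strain of the labels' background makes the chain is not stated in the sources used here. The part of strain in these counts was not tested.

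Promoter stretches of 4 genes from RefSeq (GRCm38.p6) are shown because they hold, in different degree, the X and Y boxes known from class II promoters. Capitals mark a match to the X box core or the nearest stretch with 1 mismatch to it, and a Y box core (ATTGG). The motif of the X box core was written from knowledge of class II promoters. H2-Eb1, H2-DMb2 and H2-DMb1 are read on the plus strand at chr17:34305750-34305837, chr17:34145101-34145188 and chr17:34153091-34153120, and H2-Aa on the minus strand at chr17:34287842-34287929.
H2-Eb1: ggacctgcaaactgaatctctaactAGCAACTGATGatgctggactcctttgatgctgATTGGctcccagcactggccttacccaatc
H2-DMb2: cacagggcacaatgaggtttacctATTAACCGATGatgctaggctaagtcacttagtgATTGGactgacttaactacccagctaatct
H2-DMb1: tacctAGTAACTGATGatgctaggctgatt
H2-Aa: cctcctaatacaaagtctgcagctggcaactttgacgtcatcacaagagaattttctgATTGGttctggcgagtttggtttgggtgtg

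The X box core of H2-Eb1 began 92 bases and its Y box 59 bases before the RefSeq gene start. In H2-DMb1 the same elements began 95 and 61 bases before the start, and only its X box is printed. The nearest stretch in H2-DMb2 had 1 substitution, G2T, counted from the first base of the core, and began 124 bases before the start. These starts are those of RefSeq. By the GENCODE spans given above, the printed stretches of H2-DMb1 and H2-DMb2 lie inside the genes, so the annotations differ on where these genes start. H2-Aa held a Y box 48 bases before its start, and its closest match to the X box core had 4 mismatches. RefSeq windows of 250 bases before to 50 after the start were matched for 6 of the 10 genes, 7 windows in all. Searched on both strands, the X box core stood in 2 of these 7 windows (H2-Eb1 and H2-DMb1), against 0.968% of 32851 windows of the same length. The Y box core stood in 5 of 7, against 37.4%. An X box core followed on the same strand by a Y box core, 10 to 40 bases on, stood in 2 of 7, against 0.0274% of all windows. The cores do not overlap each other, and a match describes these letters only.

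The 6 libraries carried between 34723600 and 46847751 gene counts. Values are CPM, read counts divided by library size, after TMM scaling, which adjusts library sizes for their composition. The epidermal keratins Krt5, Krt14, Krt10 and Krt1 lay between 455 and 6312 CPM in every library. Atr itself had 20.8, 22.2 and 24.8 CPM in ATR mD/mD and 17.6, 24.5 and 24.2 CPM in ATR WT, and a count of the whole gene cannot show a deletion of part of it. The libraries also differed in hair genes. The hair gene level, the mean log2 CPM of 30 hair genes, was -0.21, 2.00 and 6.99 in ATR mD/mD 1, 2 and 3, and 1.80, 6.78 and 7.01 in ATR WT 1, 2 and 3. The mean log2 CPM of 4 Y-linked genes was -3.68, 5.17 and 5.17 in ATR mD/mD, and 4.75, -4.04 and -3.61 in ATR WT. Each group thus mixed samples with high and with nearly absent Y-linked RNA, as in males and females. The libraries of a group were therefore not all from the same mouse.

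The class II genes differed widely in level. Per kilobase of annotated exon, Cd74 averaged 779 CPM over the 6 libraries, with a range of 551 to 1020, above every value of every other gene here. H2-Ab1 followed at 196, H2-Eb1 at 143 and H2-Aa at 110 CPM per kilobase, and the ranges of these 3 overlapped, with H2-Eb1 down to 4.79 in ATR mD/mD 2. H2-DMb1 averaged 26.5, Cd207 21.5 and H2-DMa 17.9 CPM per kilobase, also with overlapping ranges. H2-DMb2 averaged 7.47 and H2-Ea-ps 4.42, and Ciita was lowest at 1.02. The ranges of these last 3 overlapped only through H2-Ea-ps, which ran between 0 and 8.60.

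No class II gene passed the test between ATR mD/mD and ATR WT skin. With edgeR's quasi-likelihood test, 0 of the 10 genes passed an adjusted p of 0.05 (Benjamini-Hochberg over 14484 genes), where 7 of all genes passed, or 0.0483%. None reached an unadjusted p under 0.05 either, against 240 genes (1.66%), and DESeq2, limma-voom and edgeR's exact test each called 0 of the 10. The groups overlapped for all 10 genes, where they did not overlap for 4.84% of all genes. By edgeR's fitted fold change, ATR mD/mD was lower for 6 genes and higher for 4, with a median log2 fold change of -0.04, against 0.01 over all genes; by means of log2 CPM the split was 7 and 3. With the hair gene level as a covariate 9 were lower and 1 higher, the median was -0.31, and none passed the adjusted p. In the authors' deposited table all 10 genes have an adjusted p of 1. In bulk skin, fewer cells that carry class II molecules and less class II RNA per cell cannot be told apart.

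Cd74 had 1712, 1199 and 925 CPM in ATR mD/mD 1, 2 and 3, and 1684, 1316 and 1008 CPM in ATR WT 1, 2 and 3. The groups overlapped, and each spread over nearly the same range. Cd74, which lies at chr18:60803848-60812652 on the plus strand, averaged 1279 ± 400 CPM in ATR mD/mD and 1336 ± 339 CPM in ATR WT (SD, n = 3 each), a log2 fold change of -0.06 (SE 0.306, 95% interval -0.80 to 0.67, edgeR adjusted p = 0.9999).

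H2-Ab1, the beta chain of the A molecule, had 670.8, 354.6 and 359.2 CPM in ATR mD/mD and 660.5, 512.2 and 465.9 CPM in ATR WT. Its alpha chain H2-Aa had 543.0, 222.4 and 262.7 CPM in ATR mD/mD and 497.3, 441.7 and 529.3 CPM in ATR WT. For both chains ATR mD/mD 2 and 3 lay below all 3 ATR WT libraries, and ATR mD/mD 1 lay above all 3. H2-Aa averaged 342.7 ± 175 CPM in ATR mD/mD and 489 ± 44.3 CPM in ATR WT (SD, n = 3 each), a log2 fold change of -0.51 (SE 0.348, 95% interval -1.35 to 0.32, edgeR adjusted p = 0.9999). H2-Ab1 had a log2 fold change of -0.24 (SE 0.302, 95% interval -0.97 to 0.48, edgeR adjusted p = 0.9999). Without ATR mD/mD 1, the log2 fold change of H2-Aa was -1.01 and that of H2-Ab1 -0.61, and neither passed the adjusted p.

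H2-Eb1, the beta chain of the E molecule, had 370.1, 9.32 and 197.9 CPM in ATR mD/mD and 353.0, 278.1 and 458.7 CPM in ATR WT. ATR mD/mD 2 stood apart, 21.2-fold below the next lowest library, with 367 counts where the other 5 libraries had 6914 to 22410. The genotype averages were 192 ± 180 CPM in ATR mD/mD and 363 ± 90.7 CPM in ATR WT (SD, n = 3 each), and the log2 fold change was -0.92 (SE 1.02, 95% interval -3.37 to 1.54, edgeR adjusted p = 0.9999). With ATR mD/mD 2 left out it was -0.36, with ATR mD/mD 1 left out -1.81, and neither passed the adjusted p. H2-Ea-ps, the E alpha gene, had 6.29, 8.91 and 2.46 CPM in ATR mD/mD and 4.58, 5.22 and 0 CPM in ATR WT. ATR mD/mD 2, lowest for H2-Eb1, was highest for H2-Ea-ps. ATR WT 3, highest for H2-Eb1, had 0 counts for H2-Ea-ps. With a floor of 3 counts (0.0614 CPM) in place of 0, it was 40.1-fold below the next lowest library. The 95% Poisson interval of the 0 counts reaches 0.0755 CPM, which covers counting error only. The log2 fold change of H2-Ea-ps was 0.85 (SE 1.34, 95% interval -2.37 to 4.08, edgeR adjusted p = 0.9999). It was 0.26 without ATR WT 3, the library at 0, and 0.43 without ATR mD/mD 2. With limma-voom it was 3.25, and none of these passed the adjusted p.

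**Figure D1:**
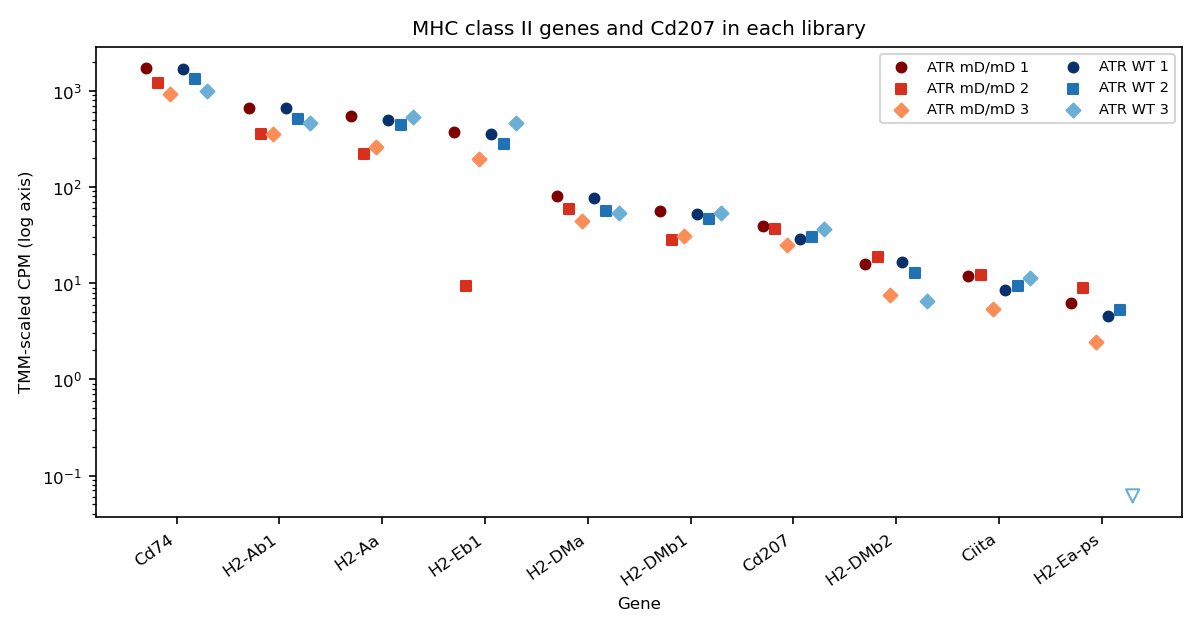
TMM-scaled CPM of the 10 genes on a log axis, 1 point for each library, ATR mD/mD to the left of ATR WT. H2-Eb1 had 9.32 CPM in ATR mD/mD 2, H2-Ea-ps had 0 counts in ATR WT 3 (open triangle at a floor of 3 counts, 0.0614 CPM), and the groups overlapped for every gene.

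H2-DMa and H2-DMb1 or H2-DMb2 pair to form the H2-DM peptide exchange factor. H2-DMb1 had 55.7, 27.9 and 30.7 CPM in ATR mD/mD and 52.4, 46.2 and 54.1 CPM in ATR WT. As with H2-Aa, ATR mD/mD 2 and 3 lay below all ATR WT libraries and ATR mD/mD 1 above them. Its log2 fold change was -0.42 (SE 0.276, 95% interval -1.08 to 0.24), with the lowest unadjusted p of the 10 genes in edgeR, 0.175. It was -0.80 with ATR mD/mD 1 left out (edgeR unadjusted p = 0.00332, adjusted p = 0.9997) and -0.24 with ATR mD/mD 2 left out. H2-DMb2 had 15.9, 18.8 and 7.59 CPM in ATR mD/mD and 16.8, 12.8 and 6.47 CPM in ATR WT, a log2 fold change of 0.23 (SE 0.450, edgeR adjusted p = 0.9999). H2-DMb2 was highest in ATR mD/mD 2, where H2-DMb1 was lowest. H2-DMa had 79.95, 59.4 and 44.5 CPM in ATR mD/mD and 76.2, 56.6 and 54.0 CPM in ATR WT, a log2 fold change of -0.02 (SE 0.246, edgeR adjusted p = 0.9999). Of 50-base windows in their transcripts, 22.7% of H2-DMb1 and 25.9% of H2-DMb2 windows also occur in other genes, mostly in each other, so the counts of this pair are uncertain. The H2-DMa exons overlap Brd2 on the other strand over 360 bases, and the kit does not mark strand.

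Ciita had 11.8, 12.1 and 5.35 CPM in ATR mD/mD and 8.47, 9.27 and 11.4 CPM in ATR WT. It was lowest in ATR mD/mD 3 and highest in ATR mD/mD 2, the library in which H2-Aa, H2-Ab1, H2-Eb1 and H2-DMb1 were lowest. Cd207 had 38.9, 37.0 and 24.7 CPM in ATR mD/mD and 28.5, 30.5 and 37.0 CPM in ATR WT, and was also lowest in ATR mD/mD 3. The log2 fold changes were 0.00 for Ciita (SE 0.337, 95% interval -0.81 to 0.81) and 0.07 for Cd207 (SE 0.210, 95% interval -0.44 to 0.57), each with an edgeR adjusted p of 0.9999.

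**Figure D2:**
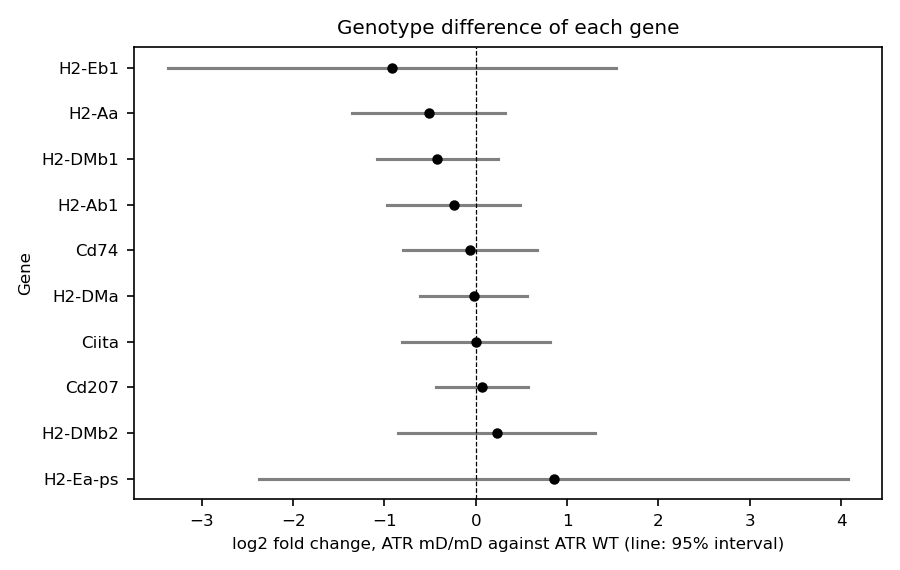
Log2 fold change of ATR mD/mD against ATR WT for each of the 10 genes, with its 95% interval from edgeR. Every interval includes 0, and those of H2-Eb1 and H2-Ea-ps are the widest.

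The positions of ATR mD/mD 3 and ATR mD/mD 1 recurred across the genes, while those of ATR mD/mD 2 and ATR WT 3 differed between genes. ATR mD/mD 3 was among the 2 lowest libraries for 10 of the 10 genes, against 40% of all genes. ATR mD/mD 1 was the highest for 6 of the 10, against 12.1% of all genes. These libraries were singled out from the order of the same 10 genes, so the shares describe that order and do not test it. ATR mD/mD 2 was the lowest for 4 genes and the highest for 3. Among 10 general leukocyte markers, ATR mD/mD 3 was among the 2 lowest for 9 and ATR mD/mD 1 the highest for 9. The summed level of these 10 markers was 878, 486 and 427 CPM in ATR mD/mD and 505, 689 and 674 CPM in ATR WT. ATR WT 1 was thus below ATR WT 2 and 3 in the sum of these markers. It was above them in the summed level of the 10 class II genes, at 3382 CPM against 2709 and 2625 CPM. Cd74 alone held 1684, 1316 and 1008 CPM of these sums in ATR WT 1, 2 and 3. Gene by gene, H2-Aa, H2-Eb1, H2-DMb1, Ciita and Cd207 were lower in ATR WT 1 than in ATR WT 3, and the others were higher. The summed level of 14 dendritic cell markers was 560, 387 and 400 CPM in ATR mD/mD and 373, 488 and 449 CPM in ATR WT. The 11 Langerhans cell markers summed to between 1054 and 1229 CPM in all 6 libraries. But this sum holds genes that epithelial cells also express, such as Cldn1 (263 to 371 CPM) and Epcam (146 to 264 CPM), against 24.7 to 38.9 CPM for Cd207. The part of these cell types in the class II levels was not tested.

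Set against Cd74, H2-Eb1, H2-Aa and H2-Ab1 had similar ratios in 4 of the 6 libraries, and 2 libraries departed from them. These 2, ATR mD/mD 2 and ATR WT 3, were singled out after their values were seen. H2-Eb1 had 21.6, 0.777 and 21.4 counts per 100 Cd74 counts in ATR mD/mD and 21.0, 21.1 and 45.5 in ATR WT. ATR mD/mD 2 was thus 27.4-fold below the mean of the 4 other libraries (21.3), and ATR WT 3 was 2.14 times that mean. H2-Aa had 31.7, 18.5 and 28.4 counts per 100 Cd74 counts in ATR mD/mD and 29.5, 33.6 and 52.5 in ATR WT. H2-Ab1 had 39.2, 29.6 and 38.8 in ATR mD/mD and 39.2, 38.9 and 46.2 in ATR WT, so that the 4 libraries lay between 38.8 and 39.2. H2-DMb1 had 3.25, 2.32 and 3.32 in ATR mD/mD and 3.11, 3.51 and 5.37 in ATR WT. For each of these 4 genes ATR mD/mD 2 was the lowest library and ATR WT 3 the highest. H2-DMb2 went the other way, with 0.927, 1.57 and 0.820 in ATR mD/mD and 0.997, 0.972 and 0.642 in ATR WT. H2-Ea-ps did so too, with 0.367, 0.743 and 0.266 in ATR mD/mD and 0.272, 0.397 and 0 in ATR WT. Ciita, Cd207 and H2-DMa followed neither pattern, being above the mean of the 4 other libraries in both. Ciita was 1.63 times that mean in ATR mD/mD 2 and 1.83 times in ATR WT 3, Cd207 1.38 and 1.64 times, and H2-DMa 1.08 and 1.17 times. Cd74, the shared denominator, had 1008 CPM in ATR WT 3, and only ATR mD/mD 3 was lower. A raised ratio may lie in Cd74 or in the other gene, and a ratio cannot tell these apart.

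**Figure D3:**
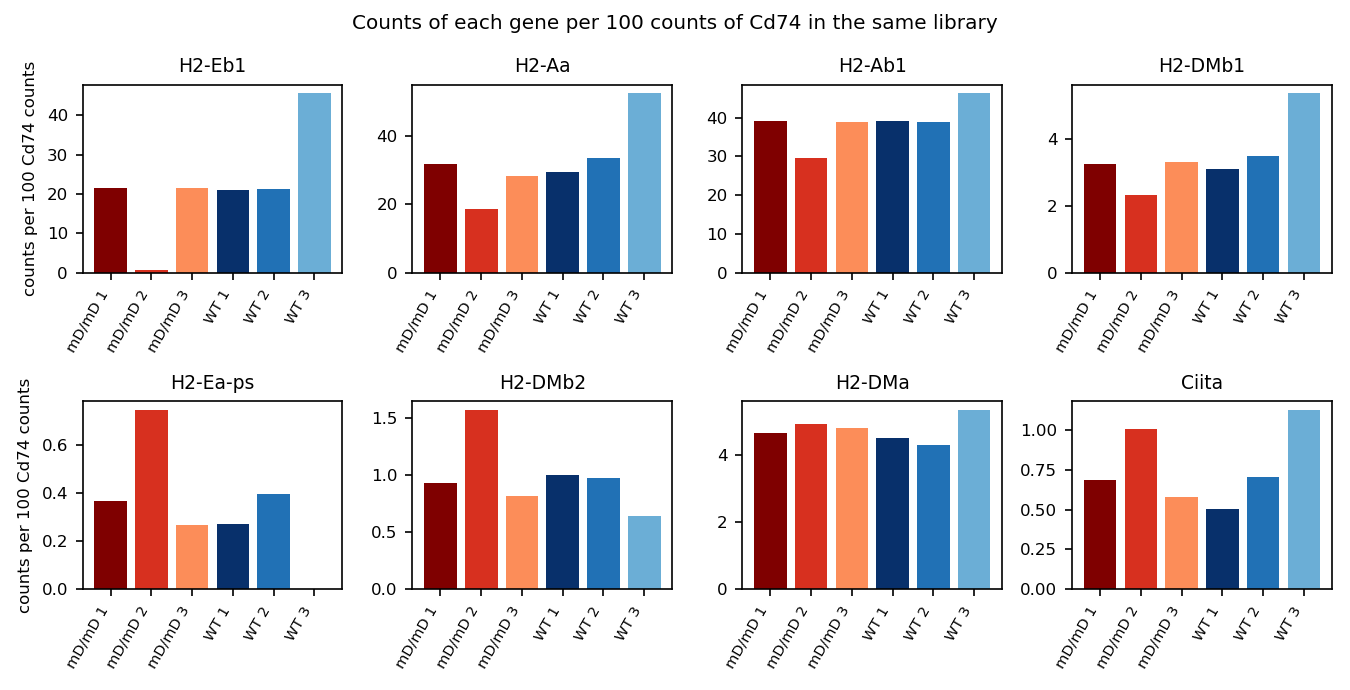
Counts of 8 genes per 100 Cd74 counts, 1 bar for each library, ATR mD/mD to the left of ATR WT, with a linear axis from 0 for each gene. H2-Eb1 lay between 21.0 and 21.6 in 4 libraries, at 0.777 in ATR mD/mD 2 and at 45.5 in ATR WT 3.

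Within the H2-DMb pair, H2-DMb2 held 22.2%, 40.3% and 19.8% of the summed counts in ATR mD/mD, and 24.3%, 21.7% and 10.7% in ATR WT. The 95% Clopper-Pearson interval was 38.1% to 42.6% in ATR mD/mD 2 and 9.58% to 11.8% in ATR WT 3, which cover counting error only. Both lay outside the range of the other 4 libraries. H2-Ea-ps counts per 100 H2-Eb1 counts were 1.70, 95.6 and 1.24 in ATR mD/mD and 1.30, 1.88 and 0 in ATR WT. Genes with a lowest library at least 3-fold below the next lowest made up 0.804% of 14436 genes with a mean of at least 1 CPM. H2-Eb1 and H2-Ea-ps were 2 of the 10 class II genes to do so, ranking 5 and 2 among all genes by this gap. The other 8 had gaps of at most 1.58-fold.

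The genes around H2-Eb1 were then described in the same 2 libraries, which had been picked from the class II values. Of 152 measured genes within 2 Mb of its start, 13 lay at least 1 log2 unit below the median of the other 5 libraries in ATR mD/mD 2, or 8.55%, against 4.6% of all genes in that library. In ATR WT 3 the number was 11, or 7.24%, against 2.83%. It was 2.63% in ATR mD/mD 1, against 3.89% of all genes, and 3.95% in ATR mD/mD 3, against 4.62%. In ATR WT 1 it was 3.29%, against 4.98%, and in ATR WT 2 it was 0.658%, against 0.824%, so these 4 libraries held a smaller share around H2-Eb1 than over all genes. The 13 and 11 genes include class II genes described above. Leaving those out, 11 of 145 genes (7.59%) remained in ATR mD/mD 2 and 9 of 145 (6.21%) in ATR WT 3. Leaving out also the genes called by hair gene level, the numbers were 9 of 141 (6.38%) in ATR mD/mD 2 and 8 of 141 (5.67%) in ATR WT 3. The shares of all genes were not recounted without the genes called by hair gene level. The last 2 percentages therefore have no matched share beside them. H2-T23, a non-classical class I gene, had 280, 30.3 and 103 CPM in ATR mD/mD and 215, 204 and 218 CPM in ATR WT. H2-K2 had 9.15, 1.60 and 6.58 CPM in ATR mD/mD and 9.10, 8.56 and 10.05 CPM in ATR WT. Both were lowest in ATR mD/mD 2, like H2-Eb1. H2-Q1, a class I gene, had 3.86, 4.90 and 2.32 CPM in ATR mD/mD and 3.34, 2.71 and 0.368 CPM in ATR WT. Btnl2, next to H2-Ea-ps, had 1.49, 1.68 and 0.973 CPM in ATR mD/mD and 1.103, 1.31 and 0.246 CPM in ATR WT. Both were lowest in ATR WT 3, like H2-Ea-ps. The labels give a mixed C57BL/6-129J background for all 6 samples and no H2 genotype, and sequence variants at H2 cannot be read from these counts, so their part was not tested.

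**Figure D4:**
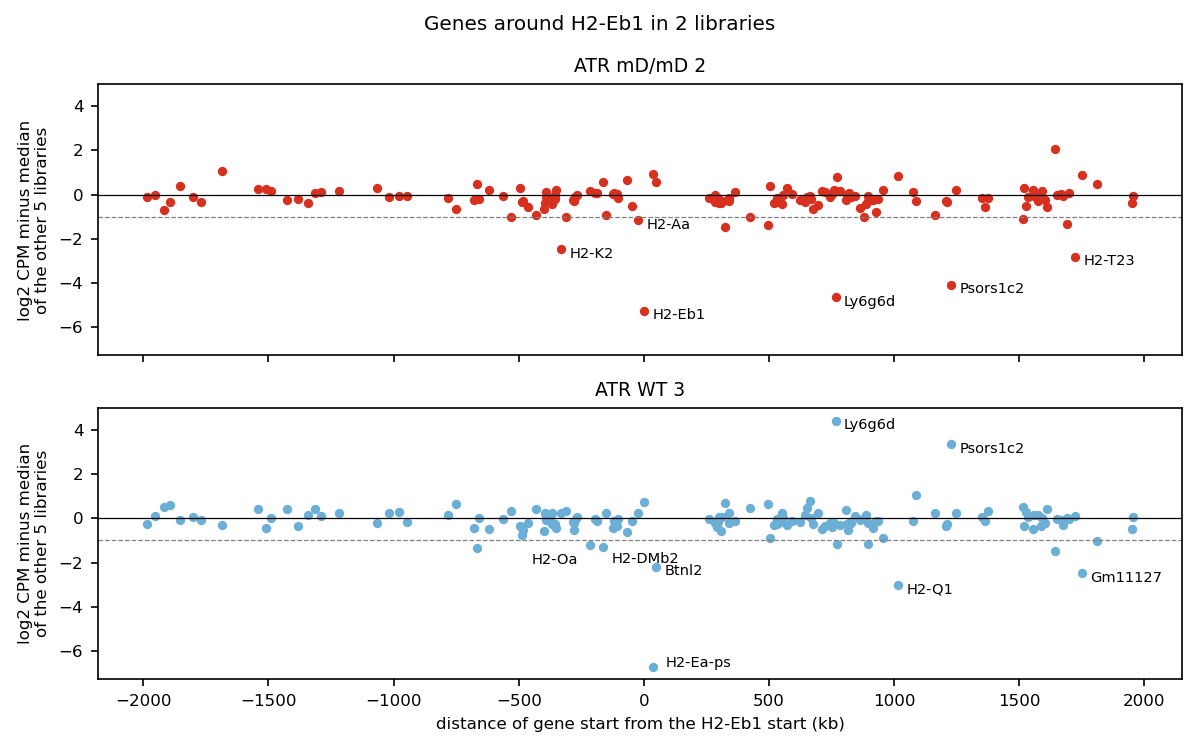
Log2 CPM of each measured gene within 2 Mb of the H2-Eb1 start minus the median of the other 5 libraries, for ATR mD/mD 2 (top) and ATR WT 3 (bottom), with a dashed line 1 log2 unit below 0. H2-Eb1, H2-K2 and H2-T23 lie far below 0 in ATR mD/mD 2, and H2-Ea-ps, H2-Q1 and Btnl2 in ATR WT 3, while Ly6g6d and Psors1c2 were high in the 3 libraries with high hair gene levels and low in the others.

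The fit of the hair gene level, with genotype as a second term, gave a negative slope for all 10 class II genes, against 47.8% of all genes. Only 1 of the 10, H2-DMa, passed the adjusted p. Of all genes 1412 (9.75%) did so, 811 (5.6%) with a positive and 601 (4.15%) with a negative slope. H2-DMa fell by 0.10 log2 units per log2 unit of hair gene level (SE 0.0198, edgeR adjusted p = 0.0269). This call was lost without the genotype term (adjusted p = 0.0607) and without any library other than ATR mD/mD 2, with adjusted p values up to 0.124. H2-DMa had 44.5 CPM in ATR mD/mD 3 and 56.6 and 54.0 CPM in ATR WT 2 and 3, the libraries with high hair gene levels. It had 79.95 and 59.4 CPM in ATR mD/mD 1 and 2 and 76.2 CPM in ATR WT 1, the libraries with low levels. The ranges of these 2 sets of libraries did not overlap, which restates the slope for which H2-DMa was named. H2-DMb2, which did not pass, split in the same way. So did H2-Oa, which is outside the 10 genes. The share of all genes with such a split was not counted, so whether it is common among all genes is not known here.

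Cd74 had a slope of -0.11 (edgeR adjusted p = 0.0867), H2-Ab1 of -0.10 (adjusted p = 0.150) and H2-DMb2 of -0.17 (adjusted p = 0.111), and each had an unadjusted p under 0.05, as did 27.1% of all genes. The slopes of the other 6 genes ran from -0.21 for H2-Ea-ps to -0.04 for Cd207. The median slope over the 10 genes was -0.09, against 0.00353 over all genes. All 10 general leukocyte markers also had negative slopes, and their part in the class II slopes was not tested. The hair gene levels fall into 2 separate sets of 3 libraries, so no correlation is given.

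**Figure D5:**
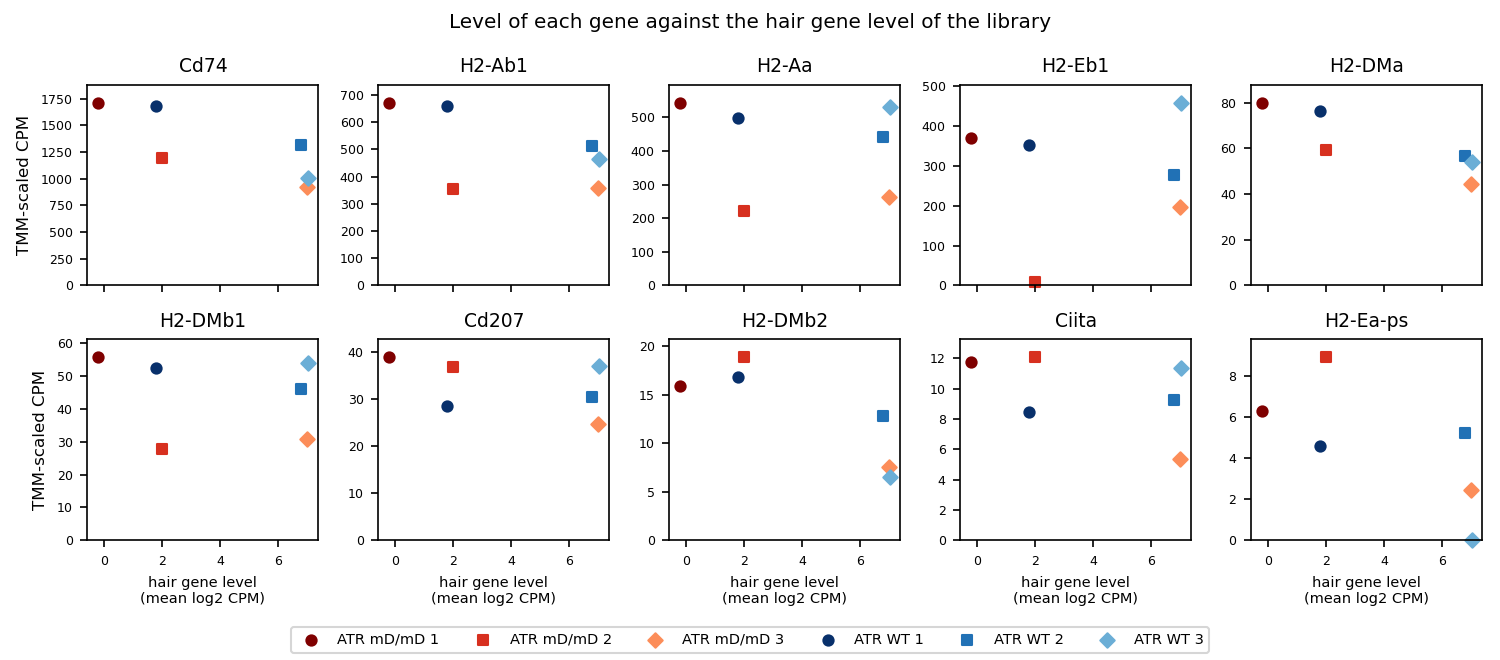
TMM-scaled CPM of each gene against the hair gene level (mean log2 CPM of 30 hair genes) of the 6 libraries. H2-DMa and H2-DMb2 lie lower in the 3 libraries near a level of 7, and H2-Eb1 in ATR mD/mD 2 lies apart from the rest.

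No gene of the lists of class II partners and of cell types that carry it passed the test by genotype. Over all genes 0.0483% passed, 48% had a negative log2 fold change, and the groups did not overlap for 4.84%. Of 13 genes of class II transcription, 0 passed; the mean was lower for 6 and higher for 7, with a median log2 fold change of 0.02. They ranged from -0.11 for Kat2b, an acetyltransferase, to 0.31 for Irf4, an interferon regulatory factor. Nfyb, a subunit of the Y box factor NF-Y, had 35.3, 37.6 and 35.7 CPM in ATR mD/mD and 34.7, 33.2 and 33.0 CPM in ATR WT, without overlap, but its log2 fold change was only 0.11 (edgeR unadjusted p = 0.362). Of 11 measured genes of class II trafficking and loading, 0 passed, with 6 lower, 5 higher and a median of -0.04. Ctss, the protease that trims the invariant chain, had the lowest value of these, -0.28 (SE 0.432). H2-Ob and H2-Oa form H2-DO, which restrains H2-DM. H2-Ob had 9.69, 9.14 and 4.35 CPM in ATR mD/mD and 5.74, 6.26 and 4.03 CPM in ATR WT, with overlapping groups and a log2 fold change of 0.53 (SE 0.358, edgeR unadjusted p = 0.183). H2-Oa had a log2 fold change of 0.09 (SE 0.497).

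Of 9 measured genes of the interferon gamma axis, 0 passed by genotype, 7 were lower and 2 higher, with a median log2 fold change of -0.10. Of 8 co-stimulation genes, 0 passed, 5 were lower and 3 higher, with a median of -0.11. Icam1, an adhesion molecule, averaged 38.7 ± 4.13 CPM in ATR mD/mD and 49.0 ± 3.27 CPM in ATR WT (SD, n = 3 each), without overlap, and had an edgeR adjusted p of 0.9999. Of 10 CD4 T cell genes, 0 passed, 7 were lower and 3 higher, with a median of -0.13. The log2 fold changes of Cd3d, Cd3e, Cd3g and Cd247 were 0.02, -0.06, 0.08 and -0.02, and those of Lag3, Icos and Cd28 -0.48, -0.49 and -0.53. Cd4, the co-receptor that binds class II, averaged 4.11 ± 0.168 CPM in ATR mD/mD and 8.62 ± 2.27 CPM in ATR WT (SD, n = 3 each), also without overlap. Its log2 fold change was -1.07 (SE 0.253, edgeR unadjusted p = 0.00458, adjusted p = 0.9999), the lowest p in these lists. None of 11 Langerhans cell, 14 dendritic cell, 13 macrophage, 10 general leukocyte and 3 measured B cell markers passed, with median log2 fold changes of -0.02, -0.07, 0.06, -0.08 and 0.16 in that order. Id2, of the Langerhans cell list, was also without overlap, with a log2 fold change of -0.16 (edgeR unadjusted p = 0.183). Groups without overlap, as for Icam1, Cd4 and Id2, occurred for 4.84% of all genes.

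The 8 genes with profiles closest to the mean profile of H2-Aa, H2-Ab1, H2-Eb1 and Cd74 over the 6 libraries were Gbp6, Cela1, Igtp, Ccl5, Ccl7, Ccl2, Vnn3 and Iigp1. The mean absolute difference of their centred log2 CPM was 0.169 for Gbp6 to 0.243 for Iigp1, against a median of 0.601 over 13755 genes. Being picked as the smallest, these values lie below the median by construction. Of the genes that make the profile, H2-Aa lay at 0.220, H2-Ab1 at 0.314, Cd74 at 0.439 and H2-Eb1 at 0.946, above that median. Gbp6, Igtp and Iigp1 belong to families of interferon-inducible GTPases, and Ccl2, Ccl5 and Ccl7 are chemokines. Gbp6 had 22.5, 8.84 and 13.2 CPM in ATR mD/mD and 24.4, 17.4 and 18.9 CPM in ATR WT, lowest in ATR mD/mD 2. The closest genes depend on H2-Eb1. Without it in the profile, a choice made after its values were seen, 0 of these 8 genes stayed among the closest 8, and Cd2, a T cell adhesion molecule, was closest at 0.0884.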

How the data were processed

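Total RNA of skin was selected with oligo dT beads and made into TruSeq RNA v2 libraries, which do not mark strand, per the labels' protocols. FastQC, TopHat2 2.0.12, edgeR and the build mm10 are named in the submitters' processing notes. Which read counter and annotation were used is not given in the sources used here. Per the file headers, the deposited values are raw whole-number counts for each gene and library. The authors also deposited there a log2 fold change, p-value and adjusted p-value per gene. Of 14486 rows, 2 name no gene; they held 4.93% to 5.73% of counts and were left out. The lowest gene total over the 6 libraries was 171 counts, so genes of very low count were not measured here.

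TMM factors ran from 0.923 to 1.04. Tests used edgeR 4.0.16 (R 4.3.3), quasi-likelihood, with Benjamini-Hochberg adjustment over 14484 genes; filterByExpr left all of them. The SE was obtained as the size of the log2 fold change over the square root of F. The hair gene level entered a second fit as a continuous term beside genotype. The script was tested on simulated data. DESeq2 1.42.0, limma 3.58.1 (voom), edgeR's exact test, covariates, a replicate block and leaving out each library were alternatives. Robust quasi-likelihood estimation, the split by means of log2 CPM and the counts around H2-Eb1 without class II or hair-called genes were added after seeing the data. The members and gene lists were chosen with earlier results of these data known. The genes named are the 10 members, genes of the class II lists, up to 2 genes of the smallest p of each other list, and the 8 genes of closest profile. Krt5, Krt14, Krt10, Krt1, Atr, Cd3d, Cd3e, Cd3g, Cd247, Icos, Cd28 and the genes around H2-Eb1 lie outside this rule. These T cell genes and the genes around H2-Eb1 were chosen after their values were seen. Within each group, all pairs of libraries differed by far more than sampling noise.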

Additional observations from a re-analysis of the deposited data

How the results depend on the processing

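None of the 10 class II genes passed the adjusted p by genotype under any of the 17 alternatives. The number of all genes called was 7, and 39 with DESeq2, 25 with edgeR's exact test, 4 with the level of Y-linked genes as a covariate, and 4 to 10 leaving out 1 library. With the replicate block it was 6, and the block called 0 of the 10 genes. Deviations of same-numbered samples from their group means correlated at 0.633, -0.509 and 0.573 for replicates 1, 2 and 3. These correlations cannot tell whether the numbers pair the samples, because the libraries also differed in hair gene level. The median log2 fold change of the 10 genes lay between -0.29 and 0.14 leaving out 1 library, and was -0.31 with the hair gene level as a covariate. H2-Aa, H2-Ab1, H2-Eb1 and H2-DMb1 were lower in ATR mD/mD under all 17 alternatives, and H2-Ea-ps higher (0.26 to 1.37 leaving out 1 library, 1.73 with the replicate block). Without ATR mD/mD 1, H2-Aa, H2-Ab1 and H2-DMb1 reached an unadjusted p under 0.05, and 199 of all genes did. The log2 fold change of Ciita turned negative with limma-voom (-0.0808), the replicate block (-0.0658) and the hair gene level as a covariate (-0.26), and that covariate also turned H2-DMb2 (-0.17) and Cd207 (-0.0497). Leaving out 1 library, the log2 fold change lay between -0.18 and 0.29 for Ciita, -0.0490 and 0.24 for Cd207, -0.0809 and 0.57 for H2-DMb2, -0.26 and 0.16 for H2-DMa, and -0.33 and 0.15 for Cd74. The cause was not tested.

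By hair gene level, 1412 genes were called, and 180 to 1177 leaving out 1 library (180 without ATR mD/mD 3, 525 without ATR WT 2, 605 without ATR WT 1 and 770 without ATR WT 3). Of the 10 class II genes 1 was called, 0 without the genotype term and 0 to 1 leaving out 1 library. The slope of H2-Eb1 turned positive with limma-voom (0.0331) and without the genotype term (0.0253), and lay between -0.18 and 0.30 leaving out 1 library. Leaving out 1 library, slopes lay between -0.12 and 0.0130 for H2-Aa, -0.10 and 0.00102 for H2-DMb1, -0.17 and 0.0529 for Ciita, -0.10 and 0.0392 for Cd207, and -0.11 and -0.09 for H2-DMa. Counts of H2-Ea-ps, at most 351 in a library, limit its precision.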
